A study of Mus musculus with 2 samples.

Results

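The 31 genes described here encode the enzymes and regulators that burn fatty acids in the liver and turn the product into ketone bodies. They were listed by function, not by a threshold on measured values, though with earlier results of these data known, and matched by identifier to the 55421 genes of the count tables through the GENCODE mouse annotation M21. All 31 were found in both tables and all 31 passed the limit for comparison, a mean of at least 50 counts over both libraries. Listed by role, 5 genes act at entry into the mitochondrion, 17 in the mitochondrial oxidation spiral, 5 in peroxisomes and 2 in ketone synthesis, and 2 are regulators.

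RNA of liver was compared between mice with floxed Rcrin alleles, called WT in the labels, and Rcrin conditional knockout mice, with a time label of 8 weeks in both. There was 1 library per genotype, of 65121596 counts for WT and 63587567 for the knockout. The sources used here name the floxed alleles for the WT mice only. They do not give the Cre driver, the cells that lost the gene, how many mice were pooled per library, their sex or when in the day they were sampled. The comparison asks how gene expression in liver differs when Rcrin is depleted. No gene of the reference tables carries the name Rcrin, so its own level was not analysed here.

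Fatty acids are first joined to coenzyme A, and long chains then cross the mitochondrial membranes as carnitine esters. Inside, each turn of the spiral oxidises, hydrates, oxidises again and splits the chain, releasing acetyl-CoA, while flavoproteins pass the electrons of the first step to the respiratory chain. Peroxisomes shorten chains that are too long or too branched for mitochondria. Hepatocytes condense surplus acetyl-CoA into ketone bodies during fasting, when the nuclear receptor PPAR alpha induces many of these genes.

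With 1 library per genotype there is no measure of the spread between animals, and no test was made. Each gene is given by its counts in the WT and the knockout library and by the log2 ratio of scaled counts, knockout over WT. The bracketed interval is an exact 95% interval of that ratio and covers counting error only, which reads copied by PCR without molecular identifiers make too narrow. Levels of different genes are compared only per length, as counts per exonic base scaled to the same sum over all genes in each library. In bulk tissue, fewer cells of a type and less RNA per cell cannot be told apart.

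Most of the 31 genes stood somewhat higher in the knockout library, while the entry genes Cpt1a and Acsl1, the dehydrogenase Acadl and the coactivator Ppargc1a stood lowest. Of the 31, 21 had a log2 ratio above 0 and 10 below, where 49.2% of all genes compared were above and 50.8% below, and the median was 0.23 beside -0.01 over all 12064 genes compared. The middle 50% of the members lay between -0.06 and 0.54, and that of all genes between -0.44 and 0.44. The counting interval lay above 0 for 20 members, below 0 for 7, and held 0 for 4, and over all genes compared it lay above 0 for 39.3% and below for 40%. Summed over the members, counts made up 0.686% of the WT library and 0.872% of the knockout library, and the summed level per length was 6052 and 7678.

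The differences of single members were small beside those of the whole table. No member was at least 2-fold higher in the knockout library, where 8.45% of all genes compared were, and 1 was at least 2-fold lower, where 8.61% of all genes were. At a limit of 1.5-fold, 5 members were higher (Acsl5, Decr1, Acaa1b, Acat1 and Eci1) beside 19% of all genes, and 3 were lower (Cpt1a, Acsl1 and Ppargc1a) beside 18.8%. Better measured genes were taken as those that averaged 1000 counts or more, had 3 or more exons and were above 0 in both. Of these 4973 genes, 5.79% were at least 2-fold higher and 5.61% at least 2-fold lower, and 16.2% and 14.8% passed 1.5-fold. The members' shares at 1.5-fold, 16.1% higher and 9.68% lower, were thus no larger than those of all genes.

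**Figure D1:**
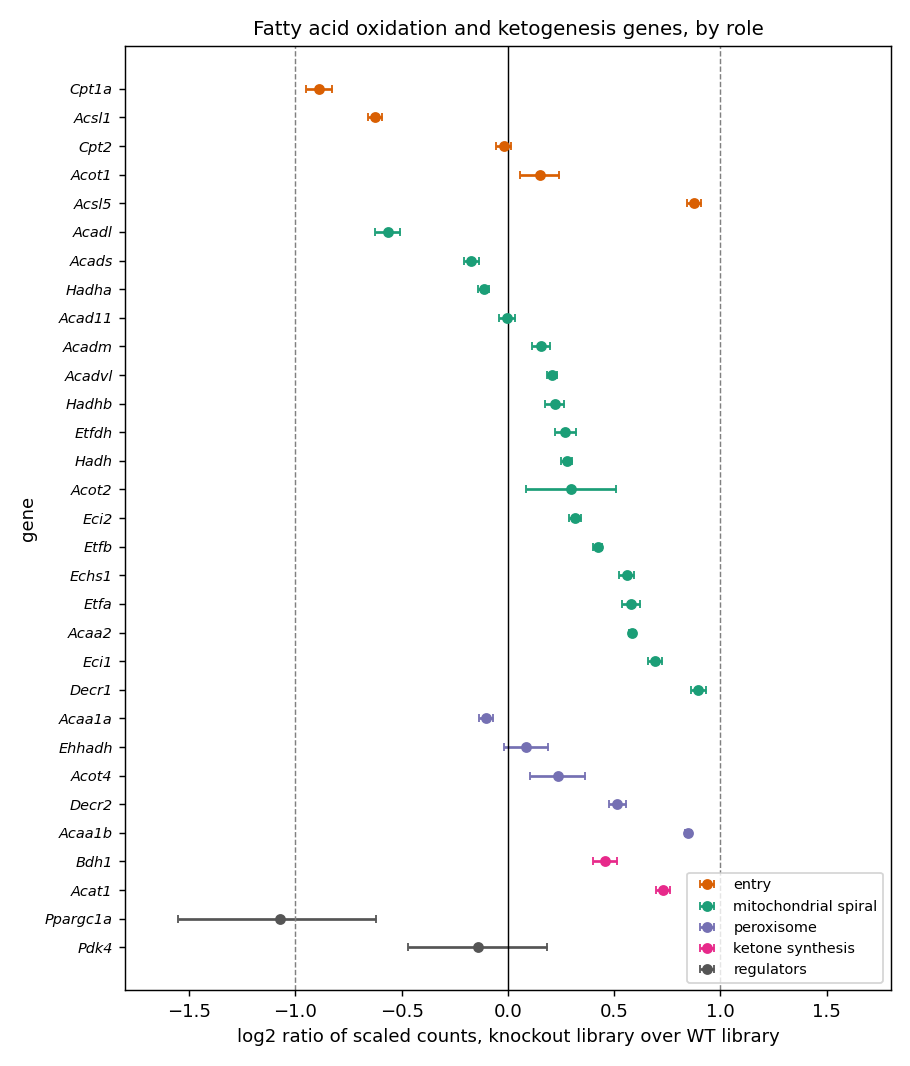
Log2 ratio of scaled counts, knockout over WT, for each of the 31 genes, grouped and coloured by role. Points are the ratios of 1 library per genotype, bars are exact 95% intervals for counting error only, and dashed lines mark 2-fold. Cpt1a, Acsl1, Acadl and Ppargc1a lie farthest to the left, and Acsl5, Decr1, Acaa1b and Acat1 farthest to the right.

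At entry, the members went in opposite directions. Cpt1a encodes the liver carnitine palmitoyltransferase of the outer membrane, the step that malonyl-CoA inhibits and that sets the rate of entry. It lies on chr19:3322334-3385733 (GRCm38, + strand, 19 exons). Cpt1a had 6390 counts in WT and 3248 in the knockout, a log2 ratio of -0.89 [-0.95 to -0.83], or 1.85-fold lower. Cpt2, its partner on the inner membrane, which hands the chain back to coenzyme A, had 13310 and 12378 counts, a ratio of -0.02 [-0.05 to 0.02]. The knockout library was thus lower for the outer enzyme while the inner one differed by no more than counting error. Within a library, where the scaling between libraries plays no part, there were 2.08 Cpt2 counts for each Cpt1a count in WT and 3.81 in the knockout.

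The promoter of Cpt1a is printed because this gene is the entry enzyme that stood lowest. The sequence is the RefSeq window from 250 bases before to 50 after the start of transcription, chr19:3323051-3323350 on the + strand of GRCm38.p6. Capitals mark its 1 match to AGGTCA, the core element of PPAR alpha and related receptors, searched on both strands.
Cpt1a: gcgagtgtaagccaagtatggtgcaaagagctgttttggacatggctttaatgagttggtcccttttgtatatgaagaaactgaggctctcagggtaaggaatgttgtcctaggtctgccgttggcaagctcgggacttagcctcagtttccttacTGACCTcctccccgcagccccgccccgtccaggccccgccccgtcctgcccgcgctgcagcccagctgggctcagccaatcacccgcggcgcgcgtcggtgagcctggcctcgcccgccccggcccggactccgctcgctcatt
The letters AGGTCA were present in 5 of the 30 windows found for 28 members (16.7%), those of Acadm, Acadvl, Acot4, Cpt1a and Echs1, and in 16.3% of all 32851 windows. An exact direct repeat of these letters with 1 base between, the arrangement PPAR alpha binds, was in none of the members' windows and in 0.0396% of all windows. The cyclic AMP element TGACGTCA was likewise in none of the members' windows, and in 1.79% of all. Exact matches this rare could hardly be met in 30 windows, so their absence says nothing about the members. A match is a description of letters only, and no factor's binding was measured here.

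The long-chain acyl-CoA synthetases Acsl1 and Acsl5 activate fatty acids at the start of the pathway, and they lay on opposite sides of 0. Acsl1, the main synthetase of liver, on chr8:46471037-46536051, had 20266 and 12385 counts, a log2 ratio of -0.63 [-0.66 to -0.59]. Acsl5, on chr19:55251938-55297720, had 12048 and 20857 counts, a ratio of 0.88 [0.84 to 0.91], or 1.84-fold higher. There were 0.594 [0.581 to 0.608] Acsl5 counts per Acsl1 count in WT and 1.68 [1.65 to 1.72] in the knockout, so the ratio was 2.83 times as large. Per length, Acsl1 stood at 66.4 and 39.0, and Acsl5 at 85.1 and 142. Their order in WT depends on the length used. With median transcript lengths, Acsl1 stood at 419 and 240, and Acsl5 at 344 and 558. Of their relatives outside the members, named after their values were seen, Acsl3 stood at a ratio of 0.08 and Acsl4 at 0.52. Acot1, the cytosolic thioesterase that undoes this activation, had 1873 and 1957 counts, a ratio of 0.15 [0.06 to 0.24].

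**Figure D2:**
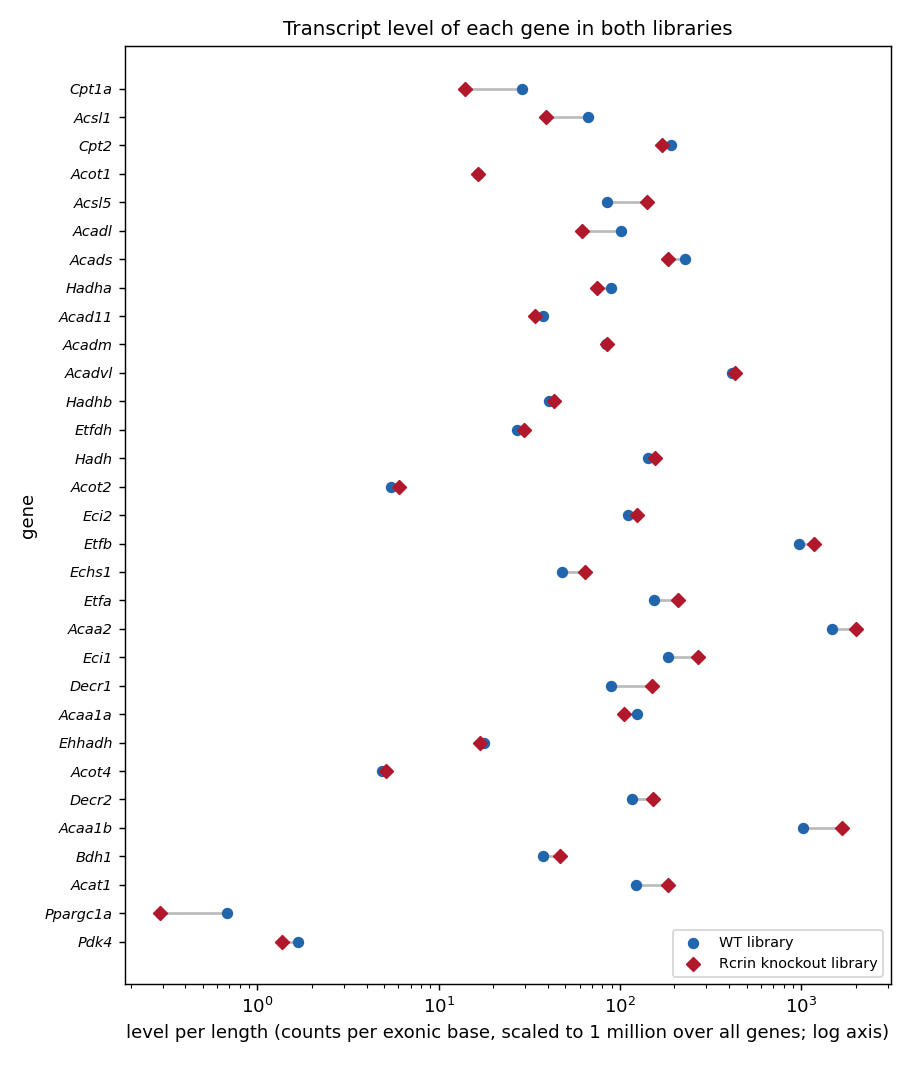
Level per length of each of the 31 genes in the WT library (circles) and the knockout library (diamonds), on a log axis, in counts per exonic base scaled to the same sum over all genes in each library. Acaa2, Acaa1b and Etfb are the most abundant transcripts in both libraries, and Ppargc1a and Pdk4 the least.

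In the spiral, 13 of 17 genes had a ratio above 0, beside 49.2% of all genes, and the median was 0.28. The first step of each turn is made by acyl-CoA dehydrogenases of different chain length, and these did not differ alike. Acadl, for long chains, had 5897 and 3757 counts, a ratio of -0.56 [-0.62 to -0.51]. Acadvl, for very long chains and bound to the inner membrane, had 32398 and 35253, a ratio of 0.21 [0.19 to 0.23]. Acadm, for medium chains, had 9572 and 10050, a ratio of 0.16 [0.12 to 0.20]. The short-chain enzyme Acads was slightly lower, with 15090 and 12627 counts, at -0.17 [-0.21 to -0.14]. Acad11, a further member of the family, was level at -0.00 [-0.04 to 0.04]. For each Acadl count there were 1.62 Acadm counts in WT and 2.68 in the knockout, and 5.49 and 9.38 Acadvl counts. Acadvl was the most abundant of these dehydrogenases per length, at 415 and 433, and Acadl stood at 101 and 61.8. Acadvl shares 14.9% of its 100-base exon windows with the overlapping gene Dvl2, which had 405 and 209 counts.

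The electron transfer flavoprotein takes up the electrons of all these dehydrogenases. Its subunits were both higher in the knockout library, Etfa with 8262 and 11637 counts at 0.58 [0.54 to 0.62], and Etfb with 33045 and 41741 counts at 0.42 [0.40 to 0.44]. Etfdh, the membrane enzyme that passes the electrons on to ubiquinone, had 5893 and 6701 counts, at 0.27 [0.22 to 0.32]. Per length, Etfb stood at 6.31 times Etfa in WT and 5.65 times in the knockout, a smaller departure than that of the synthetases. Etfb overlaps the annotated gene Gm45233 in 35.8% of its 100-base exon windows, and that gene had 65 and 0 counts. How reads in the overlap were counted is not stated, so these counts do not show whether the values of Etfb were affected.

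The middle steps, hydration and the second oxidation, are shared by the trifunctional protein and by soluble enzymes. Hadha and Hadhb encode the alpha and beta chains of the trifunctional protein and lie head to head on chromosome 5. Hadha had 22689 and 19754 counts, a ratio of -0.11 [-0.14 to -0.09], and Hadhb 7834 and 8599, a ratio of 0.22 [0.18 to 0.26]. The chains of 1 complex therefore stood on opposite sides of 0, by small amounts that counting error does not cover, although Hadhb came to -0.05 once the GC trend described below was removed. There were 0.345 Hadhb counts per Hadha count in WT and 0.435 in the knockout, a ratio 1.26 times as large. A copy of part of Hadhb, the pseudogene Gm13910, covers 14.8% of its 100-base exon windows and had 0 counts in both libraries.

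Their RefSeq start sites are 273 bases apart and face away from each other, and their promoter windows share 228 bases. The sequence printed is the Hadhb window, chr5:30155003-30155302, + strand, with capitals on 4 matches to the GC box GGGCGG on either strand. The Hadha window, chr5:30154931-30155230, begins and ends earlier. The print therefore shows only the shared part of it, and not all of the marked matches lie in that part.
Hadhb: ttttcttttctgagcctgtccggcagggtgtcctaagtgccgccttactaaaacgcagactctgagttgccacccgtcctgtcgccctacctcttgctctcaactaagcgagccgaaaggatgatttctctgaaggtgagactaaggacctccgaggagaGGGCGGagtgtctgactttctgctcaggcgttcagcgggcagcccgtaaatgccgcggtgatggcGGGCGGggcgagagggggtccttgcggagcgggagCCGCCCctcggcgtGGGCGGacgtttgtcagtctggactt
The GC box letters were present in 19 of the 30 windows of the members (63.3%) and in 35.7% of all windows. No entry was found for Decr1, Acat1 and Acaa2.

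The soluble enzymes of the same steps were higher in the knockout library. Echs1, the short-chain enoyl-CoA hydratase, had 11608 and 16116 counts, at 0.56 [0.52 to 0.59]. Hadh, the short-chain hydroxyacyl-CoA dehydrogenase, had 20745 and 23670, at 0.28 [0.25 to 0.30]. The thiolase Acaa2, which ends each turn by releasing acetyl-CoA, had 65003 and 91850, at 0.58 [0.57 to 0.60], and was the most abundant of the 31 transcripts per length, at 1474 and 2000.

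Unsaturated fatty acids need auxiliary enzymes that move or remove their double bonds, and all of these were higher in the knockout library. Decr1, the mitochondrial dienoyl-CoA reductase on chr4:15917240-15945507, had 10099 and 17707 counts and the highest ratio of the 31 genes, 0.90 [0.86 to 0.93], or 1.86-fold. The isomerase Eci1 had 11425 and 17389 counts, at 0.69 [0.66 to 0.73]. Its relative Eci2 had 17795 and 20890, at 0.32 [0.29 to 0.35]. The peroxisomal reductase Decr2 had 9044 and 12178, at 0.51 [0.48 to 0.55]. Acot2, the mitochondrial thioesterase, was scarce, with 347 and 402 counts, at 0.30 [0.09 to 0.51].

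In peroxisomes, the pair of near-identical thiolases Acaa1a and Acaa1b differed in direction. Acaa1b, on chr9:119148023-119157093, had 58746 and 99603 counts, a ratio of 0.85 [0.83 to 0.86], or 1.799-fold higher. Acaa1a, on chr9:119339676-119350299, had 15967 and 14007, a ratio of -0.10 [-0.14 to -0.07], which came to 0.13 with the GC trend removed. There were 3.68 [3.62 to 3.74] Acaa1b counts per Acaa1a count in WT and 7.11 [6.99 to 7.24] in the knockout. Taken as a sum, the pair had 74713 and 113610 counts, a ratio of 0.69 [0.68 to 0.70].

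Whether reads can be told apart between such copies depends on where they fall. The coding sequences of Acaa1a and Acaa1b are identical at 1231 of 1275 bases (96.5%), with a longest identical run of 327 bases. Of all 100-base exon windows, 7.21% of those of Acaa1a and 19.3% of those of Acaa1b were found in the other gene. The treatment of reads that match several places is not stated in the sources used here, so the values of the single genes are uncertain to that extent. The 90 coding bases in which the copies differ most, coding bases 447 to 536 of both, are printed to show what separates them, with the 12 bases that differ in capitals. They lie on chr9:119346470-119346559 (+ strand) for Acaa1a and chr9:119151825-119151914 (- strand) for Acaa1b.
Acaa1a: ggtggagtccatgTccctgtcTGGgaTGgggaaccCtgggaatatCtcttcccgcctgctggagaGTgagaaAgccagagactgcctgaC
Acaa1b: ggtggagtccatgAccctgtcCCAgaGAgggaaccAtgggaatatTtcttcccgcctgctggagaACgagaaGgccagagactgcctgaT

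Outside the coding sequence the copies differ more. The promoter window of Acaa1a, chr9:119341044-119341343 on the + strand, holds 3 matches to GGGCGG, marked in capitals, and that of Acaa1b, chr9:119157044-119157343 on the - strand, holds 0.
Acaa1a: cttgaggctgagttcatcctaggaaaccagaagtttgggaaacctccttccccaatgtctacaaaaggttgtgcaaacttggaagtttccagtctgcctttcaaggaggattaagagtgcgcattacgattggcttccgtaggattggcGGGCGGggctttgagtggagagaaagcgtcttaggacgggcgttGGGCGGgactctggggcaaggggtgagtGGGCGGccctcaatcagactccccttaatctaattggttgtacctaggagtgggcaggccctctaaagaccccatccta
Acaa1b: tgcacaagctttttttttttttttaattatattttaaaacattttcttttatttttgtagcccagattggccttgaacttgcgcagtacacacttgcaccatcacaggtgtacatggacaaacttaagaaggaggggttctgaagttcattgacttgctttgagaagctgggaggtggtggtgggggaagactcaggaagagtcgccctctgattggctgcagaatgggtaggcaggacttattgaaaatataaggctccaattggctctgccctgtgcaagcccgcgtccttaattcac

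Ehhadh and Acot4 complete the peroxisomal members. Ehhadh, the bifunctional enzyme that acts just before the thiolase, had 1535 counts in each library, which after scaling is a ratio of 0.09 [-0.02 to 0.19]. Acot4, a peroxisomal thioesterase, had 940 and 1042 counts, at 0.23 [0.11 to 0.36]. Per length Ehhadh stood at 17.7 and 17.0, far under Acaa1b at 1029 and 1675. Levels per length are scaled separately from the log2 ratios, so a small difference between the libraries can point the other way, as it does for Ehhadh.

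The thioesterases Acot1, Acot2 and Acot4 form a cluster of copies on chromosome 12, and their ratios, 0.15, 0.30 and 0.23, lay close together. Acot1 and Acot2 are identical at 1180 of 1239 aligned coding bases (95.2%), with a longest identical run of 273 bases. The 90 bases in which they differ most are coding bases 797 to 886 of Acot1 (chr12:84016916-84017005, + strand) and 920 to 1009 of Acot2 (chr12:83992638-83992727, + strand), with the 14 bases that differ in capitals.
Acot1: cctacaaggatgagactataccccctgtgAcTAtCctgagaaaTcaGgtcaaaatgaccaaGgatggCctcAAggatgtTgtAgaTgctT
Acot2: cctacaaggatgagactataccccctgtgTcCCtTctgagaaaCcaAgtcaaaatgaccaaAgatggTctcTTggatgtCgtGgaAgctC
Summed over all 3 genes, there were 3160 and 3401 counts, a ratio of 0.19 [0.12 to 0.26]. With all 3 single ratios above 0, that of the sum had to be above 0 as well. Of the 100-base exon windows, 9.32% of those of Acot1 and 17.1% of those of Acot2 were found in the other gene. As with the thiolases, the values of these single genes are uncertain to that extent.

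**Figure D3:**
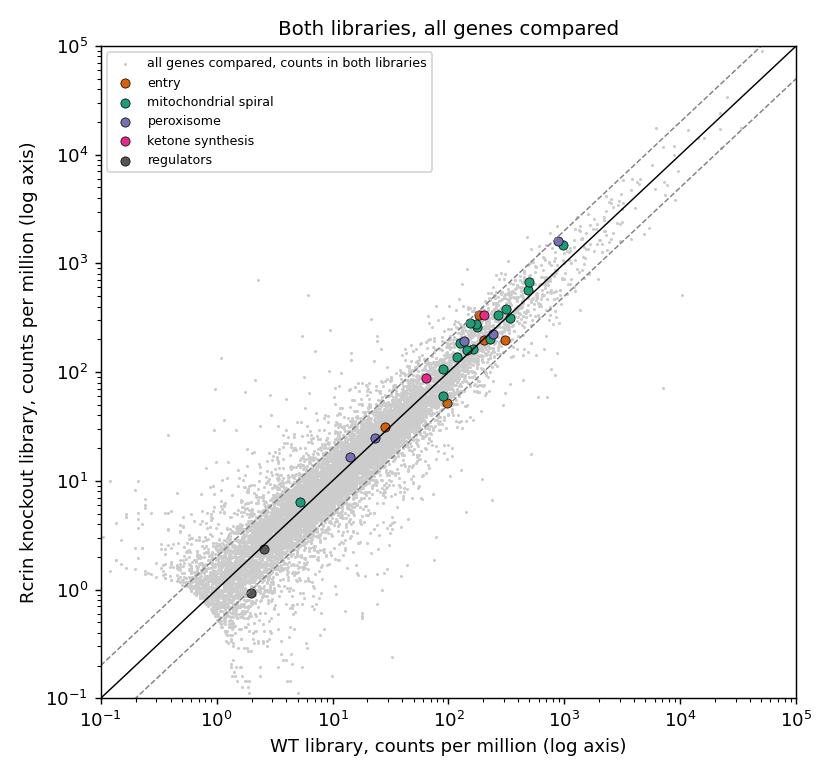
Scaled counts (CPM) in the WT library (horizontal, log axis) against the knockout library (vertical, log axis) for all genes compared with counts in both (grey) and the 31 members (coloured by role). The solid line marks equal scaled levels and the dashed lines 2-fold, and every member but Ppargc1a lies between the dashed lines.

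Of ketone synthesis, both members were higher in the knockout library. Acat1, the mitochondrial thiolase that joins acetyl-CoA units, had 13468 and 21044 counts, at 0.73 [0.70 to 0.76], or 1.66-fold higher. Bdh1, which reduces acetoacetate to beta-hydroxybutyrate, had 4263 and 5512, at 0.46 [0.40 to 0.51]. There were 0.317 Bdh1 counts per Acat1 count in WT and 0.262 in the knockout, since Acat1 differed by more.

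Both regulators had few counts. Ppargc1a, a transcriptional coactivator of mitochondrial and fasting genes, on chr5:51454250-51567726, had 130 and 58 counts, a ratio of -1.07 [-1.55 to -0.62], or 2.10-fold lower. It was the only member past 2-fold, and its counting interval reaches well inside that limit. Pdk4, the kinase that shuts off pyruvate dehydrogenase when fat is burned, had 171 and 146 counts, a ratio of -0.14 [-0.47 to 0.18]. A difference in Pdk4 was not detectable at this depth.

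Other genes of the pathway were read from 6 lists that cover transport, other dehydrogenases, peroxisomes, ketone bodies, regulators and genes induced by PPAR alpha. Of 110 genes listed, 99 were compared, 59 with a ratio above 0 and 40 below, 11 at least 2-fold higher and 4 at least 2-fold lower, with a median of 0.17. The shares of all genes given above, 8.45% higher and 8.61% lower, are the measure of these counts. Those named below come from the highest and lowest of each list and from all past 2-fold that averaged 100 counts or more, have 3 or more exons and were above 0 in both, unless stated otherwise.

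Among 16 transport and activation genes compared, 3 were at least 2-fold higher and 1 lower. Crat, the carnitine acetyltransferase that buffers acetyl-CoA, was lower with 4541 and 1541 counts, at -1.47 [-1.56 to -1.39]. Fabp1, the fatty acid binding protein of the hepatocyte cytosol, was higher with 56832 and 137221 counts, at 1.36 [1.34 to 1.37], as was the fatty acid translocase Cd36 with 355 and 1017, at 1.60 [1.43 to 1.78]. The third was Cpt1b, the muscle form of the entry enzyme, which falls outside the naming limits, with 14 and 122 counts. Per length, Cpt1b at 0.143 and 1.19 stayed far under Cpt1a at 28.7 and 14.0. The carnitine carrier Slc25a20, between Cpt1a and Cpt2 in the pathway, was chosen for mention after its value was seen and stood at 0.03 [-0.01 to 0.07]. The list's median was 0.21.

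The peroxisomal list was the one with most genes above 0, 18 of 22 compared beside 49.2% of all genes, with a median of 0.40, 4 at least 2-fold higher and 0 lower. The oxidase Acox3 had 915 and 1963 counts, at 1.19 [1.07 to 1.30]. The importer Abcd2 (81 and 226 counts, 1.56 [1.19 to 1.95]) and the coenzyme A hydrolase Nudt7 (39919 and 78165 counts, 1.05 [1.04 to 1.07]) were higher as well. Scp2, which carries the thiolase for branched chains, was lowest with 139141 and 93582, at -0.49 [-0.50 to -0.47].

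Of 13 other mitochondrial acyl-CoA genes, some of which serve branched-chain amino acids or odd chains, 1 was at least 2-fold higher and 0 lower, with a median of 0.20. Mut, the methylmalonyl-CoA mutase, had 1711 and 4048 counts, at 1.33 [1.25 to 1.41]. Acad12 was lowest, with 1171 and 668, at -0.72 [-0.86 to -0.59]. Of 9 ketone body genes compared, the monocarboxylate carriers marked both ends, Slc16a7 with 824 and 2012 counts at 1.37 [1.26 to 1.49] and Slc16a1 with 5028 and 3295 at -0.52 [-0.59 to -0.46]. The list's median was 0.09.

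Among 23 regulators compared, 2 were at least 2-fold higher and 2 lower, with a median of -0.18. Rxra, the receptor that pairs with PPAR alpha on DNA, was lower with 13896 and 5931 counts, at -1.14 [-1.19 to -1.10], while Ppara itself, chosen for mention after its value was seen, had 740 and 703, at 0.01 [-0.14 to 0.16]. Nrip1, a corepressor of oxidative genes, had 334 and 7 counts, at -5.40 [-6.82 to -4.43], and 64.02% of its transcript lies in 1 exon. Pdk1, a relative of Pdk4, was higher with 1741 and 3427, at 1.06 [0.98 to 1.15]. The other regulator past 2-fold was the hormone Fgf21, outside the naming limits, with 45 and 98 counts.

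Genes that PPAR alpha is known to induce stood lower rather than higher. Of 16 compared, 11 were below 0 and 5 above, beside 50.8% and 49.2% of all genes, 0 were at least 2-fold higher and 1 was lower, and the median was -0.44. Angptl4, an inhibitor of lipoprotein lipase, had 8990 and 4180 counts, at -1.02 [-1.07 to -0.97]. Slc25a47, a mitochondrial carrier of liver, was highest with 21608 and 33123, at 0.70 [0.68 to 0.73]. Retsat, Cyp4a14 and Cyp4a10, chosen for mention after their values were seen, stood at -0.93, -0.42 and -0.31, where the Cyp4a genes are close copies whose reads may be shared. Among the members that this receptor also induces, Cpt1a and Acsl1 were lower and Acaa1b and Decr1 higher, so these members did not all lie on 1 side of 0.

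**Figure D4:**
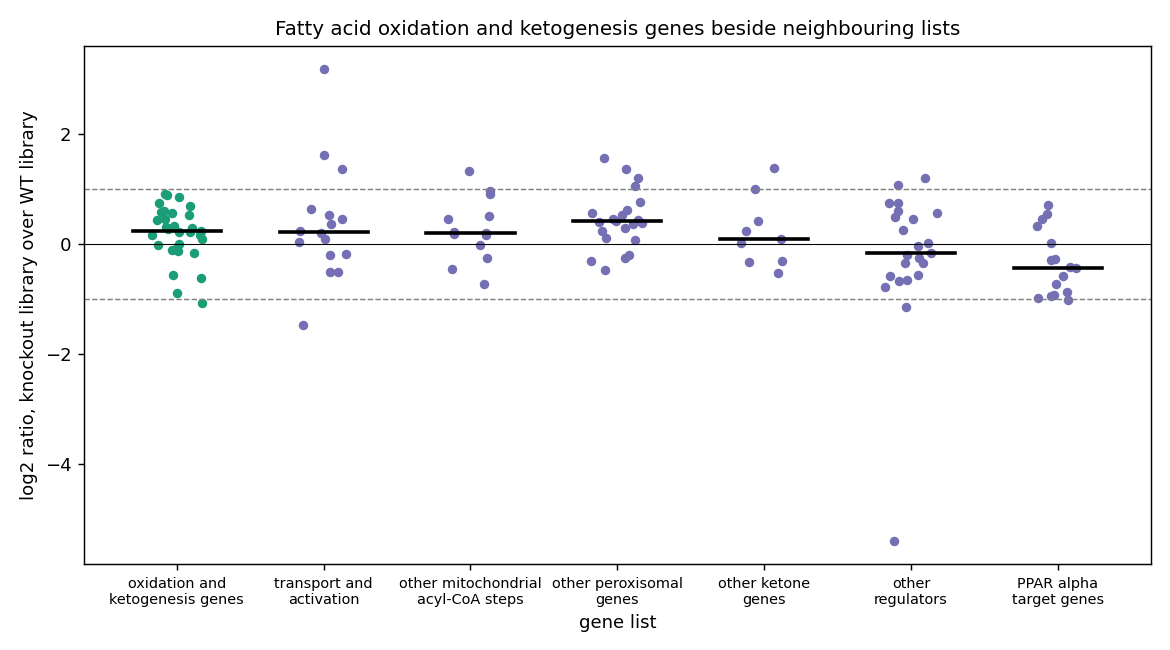
Log2 ratio, knockout over WT, of each gene compared in the 31 members and in 6 neighbouring lists. Points are single genes, thick lines are medians and dashed lines mark 2-fold. The members spread less widely than the regulators and the transport genes, and only the regulators and the PPAR alpha targets have medians below 0.

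Both libraries carried the markers of liver, and the libraries also differed in markers of other cell types. All 15 hepatocyte markers were detected, 10 above and 5 below 0 with a median of 0.20, and their summed counts were 13.4% of the WT and 16.9% of the knockout library. Alb was the largest part of that sum, with 3.35e+06 and 5.60e+06 counts at 0.83, so the sum does not speak for the markers as a set. Among the 5 below 0, Trf was lowest, with 2.21e+06 and 1.09e+06 counts at -0.93. The members and the hepatocyte markers had similar medians, 0.23 and 0.20. Of 13 Kupffer cell and macrophage markers compared, 11 were below 0 (0.204% and 0.140% of counts). The medians were -0.38 for endothelial, -0.37 for stellate and -0.33 for bile duct cell markers. None of these lists lay on 1 side of 0. Of the endothelial markers 5 were above and 7 below, of the stellate 4 and 8, and of the bile duct 2 and 4. Erythroid markers held 0.314% and 0.0770% of counts. All 8 neutrophil markers compared were below 0, and of 8 fat cell markers Adipoq, Plin1, Lep and Ucp1 were at 0 in both libraries, while the 3 compared were all below 0 with a median of -0.60, among them Fabp4 with 1138 and 554 counts. The part of these differences in the values of the members was not tested.

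The ratio between the libraries also ran with base composition. Over all genes compared, Spearman's rho between the ratio and the GC content of the transcripts was -0.33, and over the 31 members, whose GC content ran from 45.3% to 59.5%, it was -0.18. All of these values come from the same 2 libraries. Genes of 45% to 50% GC among the better measured ones had a median ratio of 0.16, and the 15 members in that range 0.27. Between 50% and 55% the medians were -0.07 for 1617 genes and 0.16 for 11 members, and over 55% they were -0.24 for 1477 genes and 0.21 for 5 members. In each of these ranges the members' median was above that of the genes.

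With the GC trend of all genes removed, the members' median was 0.13, with 22 above and 9 below 0. The ratios of Cpt1a (-0.76), Acsl1 (-0.62), Acsl5 (0.66), Decr1 (0.67) and Eci1 (0.81) kept their signs and stayed past 1.5-fold, and Acadl (-0.84) came to lie past it. Acaa1b came to 1.07, past 2-fold, and Acat1 to 0.47. The signs of Acaa1a (0.13), Acads (0.07), Cpt2 (0.09), Ehhadh (-0.10) and Hadhb (-0.05) changed, so Hadha and Hadhb then lay on the same side of 0, as did Acaa1a and Acaa1b. The medians of the transport list (0.02) and of the regulators (0.01) came to near 0, and that of the PPAR alpha targets stayed lower, at -0.49.

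**Figure D5:**
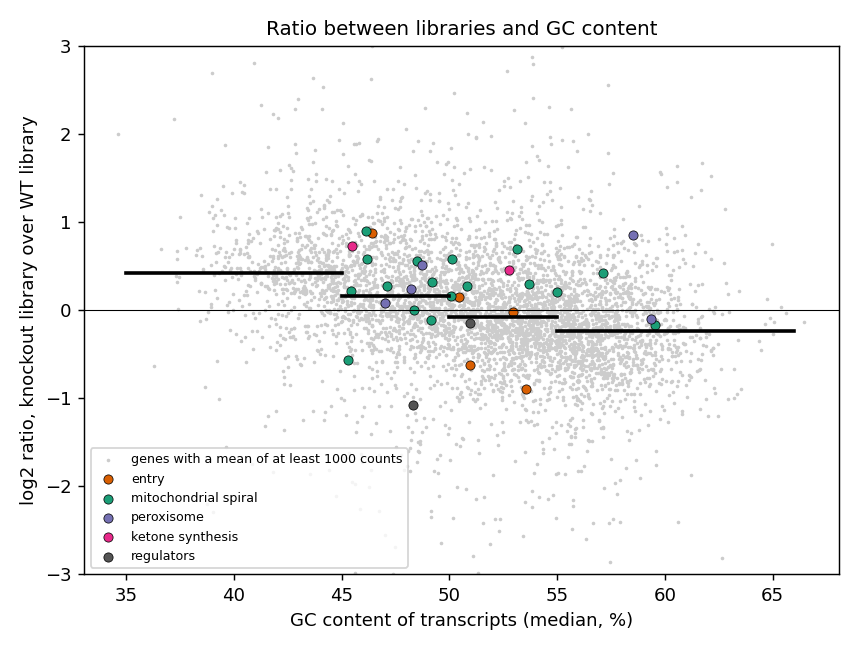
Log2 ratio, knockout over WT (drawn from -3 to 3), against the median GC content of a gene's transcripts in percent, for the 4973 better measured genes (grey) and the 31 members (coloured by role). Thick lines are the medians of the grey genes in 4 ranges of GC content and fall from 0.42 to -0.24 as GC content rises, while members with ratios above 0 are found in each range that holds members.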

How the data were processed

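Per the labels' protocols, liver RNA was taken up in Trizol and the SMARTER mRNA-Seq kit served for the libraries. The authors deposited whole-number read counts per Ensembl gene for 1 library of each genotype, per the file headers. Their build was GRCm38 (mm10), per the submitters' processing notes. The aligner, counting program, annotation release, use of strand and treatment of reads with several matches are not stated in the sources used here. Groups came from the genotype label.

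GENCODE M21 (GRCm38) gave names, positions, exons, lengths and GC content for 55240 of 55421 genes, and RefSeq the promoter windows on GRCm38.p6. A level per length uses the union of annotated exons, retained introns included, and is scaled to its sum over all genes without TMM factors. Counts were scaled by TMM factors of 1.02 (WT) and 0.982 (knockout) from edgeR 4.0.16 in R 4.3.3, and 0.5 reads were added before the log2 ratio. Exact (Clopper-Pearson) intervals of 95% came from scipy 1.17.1. Genes above 0 numbered 17487 and 17333. Neither edgeR nor DESeq2 (1.42.0, used for size factors only) gave a test. The calculation was tested on simulated data.

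The members and lists were chosen with earlier results of these data known. All 31 members are named. Of each further list, the genes named come from the highest and lowest ratio and all past 2-fold among genes that averaged 100 counts or more, have 3 or more exons and were above 0 in both. Some genes of the further lists are not reported here by name. Alternatives were other scalings, 5 added reads, GC and length trends removed by lowess, other count minimums and fold limits, members without close copies, the mean, other totals and other lengths. Replicate spread could not be assessed.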

Additional observations from a re-analysis of the deposited data

How the results depend on the processing

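No paired analysis was possible because each genotype has 1 library, and for the same reason no library could be left out. Neither DESeq2 size factors, scaling by total count, 5 added reads nor a removed length trend changed the sign of any member's ratio or moved one across 2-fold, and the largest shift of a member under them was 0.25, with the length trend. With the GC trend removed the largest shift was 0.27 and 5 members changed sign, as given above. Members at least 2-fold higher numbered 1 with the GC trend removed and 5 at a limit of 1.5-fold, in place of 0. Members at least 2-fold lower numbered 0 at a mean of at least 500 counts, 0 at a limit of 4-fold, 0 where the whole interval had to lie beyond 2-fold and 3 at 1.5-fold, in place of 1. That 1 is Ppargc1a, whose 130 and 58 counts leave it under the higher count minimum. The members' median was 0.131 with the GC trend removed. Without a filter on low counts, 7 in place of 4 genes of the further lists were at least 2-fold lower. With the 10 highest genes left out of each total, the members' share was 0.893% of WT and 1.17% of knockout counts. With median transcript lengths, their summed level was 6867 and 8051. The depth limits Ppargc1a, Pdk4 and Acot2, whose intervals are the widest of the 31.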
